A study of Mus musculus and Mus musculus musculus x Mus musculus castaneus with 8 samples.

Results

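Donor mouse embryonic fibroblast (MEF) nuclei were compared with nuclei of the same kind of cell 48 h after nuclear transfer (NT) into Xenopus laevis oocytes that overexpressed Toca1/Fnbp1l. The comparison joins 2 peak lists by position. A donor peak sharing at least 1 bp with a Toca1/Fnbp1l peak was counted as kept and any other as lost, and a peak with Toca1/Fnbp1l was counted as gained when at least 5000 bp separated it from every donor peak. By this rule 7798 of 39592 donor peaks were kept and 6520 of 16412 peaks with Toca1/Fnbp1l were gained, out of 151729 peaks in the 5 lists of the series. Both libraries were made from 3000 cells by ATAC-seq, in which a transposase cuts accessible DNA and tags it for sequencing. The donor MEFs came from crosses of Mus musculus musculus with Mus musculus castaneus and had been permeabilized for transfer, so they are not untouched cultured fibroblasts, and the transferred cells were permeabilized MEFs of the same cross. Whether 1 or several MEF cultures were used is not given in the sources used here. Each of these lists stands for 1 library, so no difference below has a replicate check.

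Open chromatin in a differentiated cell marks promoters, many of which are accessible in most cell types, and enhancers, which are held open by the transcription factors of that cell type. A Xenopus oocyte arrested in meiotic prophase has a giant nucleus rich in chromatin remodellers, histone chaperones and stored transcription factors. Somatic nuclei placed in it change their transcription without dividing or copying their DNA. Toca1, encoded by Fnbp1l, is an F-BAR protein that binds Cdc42 and the N-WASP complex and promotes actin polymerization, and the oocyte nucleus is unusual in holding large amounts of polymerized actin.

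Other lists of the series served only as references: MEFs 48 h after NT without added Toca1/Fnbp1l (control NT, 2 libraries of 3000 cells, 8257 peaks) and C2C12 myoblasts, a mouse muscle precursor line, from 50000 cells (2 libraries, 52697 peaks) and from 1000 cells (2 libraries, 34771 peaks). The lists give the edges of each peak but neither reads nor scores. Depth is therefore unknown, and a deeper library can yield more and wider peaks. Toca1/Fnbp1l, library and depth cannot be told apart here. Ranges in parentheses after a share are 95% Wilson intervals. They reflect only how many peaks were counted, not variation between experiments.

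Among the peaks that appeared with Toca1/Fnbp1l where donor MEFs had none, those at promoters can be tied to named genes through the newly opened genes that the study tabulated from its control NT peaks. The RefSeq promoter windows (GRCm38.p6, 250 bases before to 50 after a transcription start) of 4 such genes are shown because these genes had the widest gained promoter peaks among those with an entry in the table of promoter windows used here. Gpr27, whose peak was the widest, has no entry there and is named only. The genes are Ephx4, of the epoxide hydrolase family (chr5:107403263-107403562, plus strand, the upstream of its 2 windows), Tdrd5, a Tudor-domain protein of male germ cells (chr1:156303299-156303598, minus strand), Mocs3, an enzyme of molybdenum cofactor synthesis and tRNA thiolation (chr2:168230372-168230671, plus strand), and Enah, the actin regulator Mena (chr1:182019931-182020230, minus strand). Each is written 5′ to 3′, with capitals for GGGCGG (the GC box of Sp and KLF factors), CCAAT (the box read by NF-Y), TGANTCA (AP-1) and AGGTCA (a nuclear receptor half-site) on either strand. The peak positions given elsewhere are in mm9 and must not be set against these coordinates.
Ephx4: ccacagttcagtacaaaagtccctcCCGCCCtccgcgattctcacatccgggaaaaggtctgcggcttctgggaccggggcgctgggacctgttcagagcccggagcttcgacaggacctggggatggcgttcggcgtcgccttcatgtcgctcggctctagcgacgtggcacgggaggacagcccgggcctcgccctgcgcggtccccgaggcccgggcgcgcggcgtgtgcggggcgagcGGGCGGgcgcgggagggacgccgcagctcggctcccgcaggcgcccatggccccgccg
Tdrd5: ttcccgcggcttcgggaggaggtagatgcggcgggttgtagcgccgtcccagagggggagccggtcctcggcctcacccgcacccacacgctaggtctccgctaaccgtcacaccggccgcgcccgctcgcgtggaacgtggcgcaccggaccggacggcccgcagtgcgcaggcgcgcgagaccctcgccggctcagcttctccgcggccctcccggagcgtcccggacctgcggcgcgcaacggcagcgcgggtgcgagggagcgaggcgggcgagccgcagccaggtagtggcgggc
Mocs3: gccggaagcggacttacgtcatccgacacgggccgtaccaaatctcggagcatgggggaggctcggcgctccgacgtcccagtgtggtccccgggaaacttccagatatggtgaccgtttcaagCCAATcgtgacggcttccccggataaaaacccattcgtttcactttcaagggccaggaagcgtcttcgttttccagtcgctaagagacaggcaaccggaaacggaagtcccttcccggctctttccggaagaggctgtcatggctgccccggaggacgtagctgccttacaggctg
Enah: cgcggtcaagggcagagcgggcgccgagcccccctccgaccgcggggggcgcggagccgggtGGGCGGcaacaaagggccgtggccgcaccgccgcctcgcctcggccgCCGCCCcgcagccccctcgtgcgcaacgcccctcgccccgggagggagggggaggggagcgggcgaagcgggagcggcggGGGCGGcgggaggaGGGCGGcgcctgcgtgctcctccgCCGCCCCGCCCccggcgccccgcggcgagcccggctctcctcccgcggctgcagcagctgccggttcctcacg

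The Enah window held 6 matches to the GC box and was 83.3% G or C. The Ephx4 window shown held 2 such matches at 73.3% G or C, whereas the Tdrd5 window held none at 76.0%. The other Ephx4 window, not shown, was 41.3% G or C and matched none of the marked strings. Which Ephx4 window lies under the gained peak was not determined. The Mocs3 window, with 59.0% G or C, held 1 CCAAT box and no GC box. Neither AP-1 nor the nuclear receptor half-site matched in any of the 4 windows shown. Over all 32851 RefSeq windows of this length, 35.7% held the GC box, 37.4% CCAAT, 16.3% AGGTCA and 7.81% TGANTCA, and the median content of G and C was 52.7%. A match is a string of letters and not a measured binding site.

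About 1 donor peak in 5 was still a peak in the nuclei that had spent 48 h in Toca1/Fnbp1l oocytes. The kept share was 19.7% (95% Wilson interval 19.3% to 20.1%), and 31794 donor peaks were lost. The share depended on the rule and the list: it was 11.8% when overlap had to reach 50% of both peaks and 31.3% among the 16412 widest donor peaks, as many as the Toca1/Fnbp1l list holds. By length, 3.25 Mb were covered in both lists, which is 18.7% of the 17.4 Mb covered in donor MEFs and 36.9% of the 8.81 Mb covered with Toca1/Fnbp1l. Kept donor peaks had a median width of 525 bp and lost ones of 376 bp. The kept share increased with donor width. When the donor list was cut into 10 equal classes by width, 8.16% were kept in the narrowest class (7.34% to 9.05%), 17.3% in class 6 (16.2% to 18.5%) and 45.1% in the widest, of 691 to 1688 bp (43.5% to 46.6%). Among the 100 widest donor peaks 58 were kept (48.2% to 67.2%), and 97 were C2C12 peaks.

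**Figure D1:**
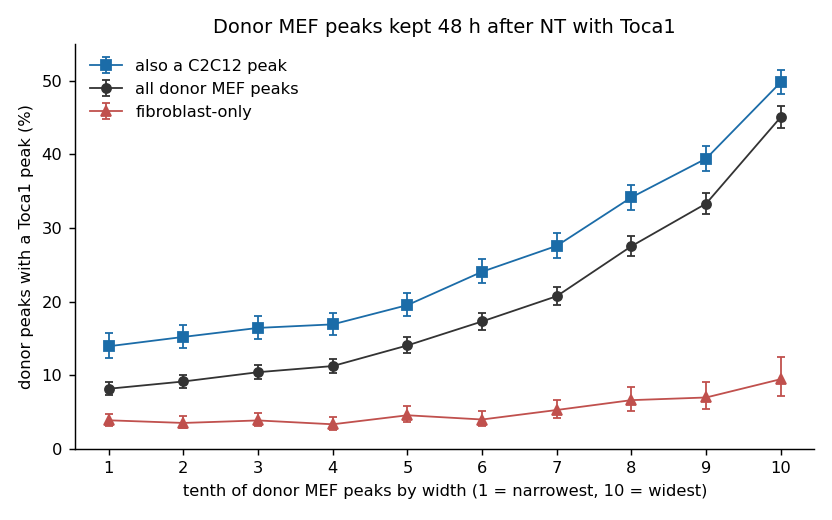
Share of donor MEF peaks overlapped by a Toca1/Fnbp1l peak (y axis, percent) in 10 equal classes of the donor list by width (x axis), for all donor peaks, those that are also C2C12 peaks from 50000 cells and fibroblast-only peaks, with 95% Wilson intervals. The share of all donor peaks climbs from 8.16% to 45.1%, while fibroblast-only peaks reach at most 9.46%, in the widest class.

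Sites open in both fibroblasts and myoblasts made up nearly all of what was kept. Among the 25562 donor peaks that overlapped a C2C12 peak, 7168 were kept (28.0%, 27.5% to 28.6%), against 630 of the 14030 fibroblast-only peaks (4.49%, 4.16% to 4.85%), set beside 19.7% of all donor peaks. The difference was 23.6 percentage points (Newcombe interval 22.9 to 24.2), and 13.3 points when overlap had to reach 50% of both peaks. C2C12 peaks from 50000 cells thus accounted for 91.9% of kept and 57.9% of lost donor peaks. The C2C12 list from 1000 cells covered 14.1% of kept and 4.05% of lost ones. The classes shared and fibroblast-only therefore depend on the C2C12 list, and here refer to that from 50000 cells. The median donor width was 442 bp at shared and 338 bp at fibroblast-only sites, so the shares were also taken within 4 equal classes of the donor list by width. In the narrowest of these 15.1% of shared and 3.75% of fibroblast-only peaks were kept, and in the widest 43.1% and 7.52%. The ratio between these shares was 4.01 in the narrowest class and 5.73 in the widest. Shared peaks were kept more often on 20 of 20 chromosomes.

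The widest donor peaks show both outcomes. The widest of all, on chromosome 6 from 113025952 to 113027639 (1688 bp), was covered by a 1542 bp peak with Toca1/Fnbp1l and a 1587 bp peak in C2C12 cells, yet the control NT list had no peak there. On chromosome 2, the site from 17985964 to 17987408 was 1445 bp wide in donor MEFs, 1667 bp with Toca1/Fnbp1l, 421 bp after control NT and 1441 bp in C2C12 cells. A site on chromosome 8 from 106864225 to 106865664 narrowed from 1440 to 470 bp. Of the widest lost peaks, that on chromosome 6 from 108609204 to 108610732 (1529 bp) was a C2C12 peak of 1595 bp. Another, on chromosome 1 from 82358173 to 82359668 (1496 bp), was in none of the other 4 lists, and the one on chromosome 10 from 16264626 to 16266101 (1476 bp) met only a 342 bp C2C12 peak.

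Most sites that persisted after control NT also persisted with Toca1/Fnbp1l. Of the 3854 donor peaks present after control NT, 2805 were kept with Toca1/Fnbp1l as well (72.8%, 71.4% to 74.2%), and these are 36.0% of the kept peaks. A further 4993 donor peaks were kept with Toca1/Fnbp1l alone, 1049 were present after control NT alone, and 30745 (77.7% of the donor list) were in neither NT list. The peaks kept in both were the widest in donor MEFs, with a median of 574 bp, followed by those with Toca1/Fnbp1l alone at 497 bp, control NT alone at 471 bp and neither at 373 bp. C2C12 peaks covered 96.0%, 89.6%, 83.8% and 57.0% of these classes in the same order. Of fibroblast-only sites present after control NT, 39.7% (34.2% to 45.5%, n = 282) recurred with Toca1/Fnbp1l, against 75.4% (74.0% to 76.8%, n = 3572) of shared sites. This contrast was not taken within width classes. Recurrence of control NT sites ran from 51.2% in the narrowest of 4 donor width classes to 80.3% in the widest. Both NT lists are compared with 1 donor list, so these overlaps share their reference.

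A donor peak next to a kept peak was kept more often than one next to a lost peak. The donor peak that followed a kept peak along the chromosome was kept in 27.7% of cases (26.7% to 28.7%) and the one that followed a lost peak in 17.7% (17.3% to 18.2%). With gaps of at least 10000 bp the shares were 25.6% and 18.7%. Donor peaks with another donor peak less than 500 bp away were kept in 27.7% of cases, with a median width of 351 bp. At larger gaps the share had no single direction, at 16.1% from 500 bp to under 2000 bp, 16.0% to under 10000 bp, 21.4% to under 50000 bp and 17.2% beyond. Among the narrowest of the 4 width classes, 18.5% were kept at gaps under 500 bp and 6.06% to 8.45% at the others. C2C12 peaks covered 74.1% of donor peaks with gaps under 500 bp and 53.8% of those with gaps of 50000 bp or more, and single Toca1/Fnbp1l peaks can span close neighbours. The part of either in these shares was not tested. Counted within 50 kb, crowding went with no steady change, from 17.3% kept with no neighbour to 20.4% with 1 or 2, 18.9% with 6 to 10 and 13.9% with 11 or more (10.4% to 18.4%, n = 287). In windows of 1 Mb the share ran from 14.9% with 1 to 4 donor peaks and 13.8% with 5 to 9 to 25.0% with 40 or more.

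The longest run of consecutive kept donor peaks held 10, within 153 kb of chromosome 18 from 36355600 to 36508801. Donor peaks there were 194 to 658 bp wide, the 11 peaks with Toca1/Fnbp1l that began in the interval were 261 to 1065 bp wide, and 2 peaks were present after control NT. Next came 8 peaks on chromosome 10 from 128063743 to 128216946, all 8 of them C2C12 peaks, where 8 peaks with Toca1/Fnbp1l began. The third run held 7 donor peaks on chromosome 19 from 60866473 to 60966223, where the control NT list held none. Only 4 peaks with Toca1/Fnbp1l (521 to 1197 bp) began in that interval, so not every donor peak there had its own. Runs of lost peaks were longer, in a list where 80.3% of peaks were lost and 19.7% kept. How long the runs would be from these shares alone was not tested. They reached 50 peaks on chromosome 6 from 99149360 to 100621328, 49 on chromosome 14 from 76878513 to 79132989 and 47 on chromosome 13 from 25040771 to 29930105. Of these lost peaks, 27, 29 and 22 respectively were C2C12 peaks.

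A few donor sites can be placed inside genes, because they lie between peaks that the study's table of newly opened peaks puts in the same gene. This gave 50 genes with 134 donor peaks, a set chosen after its values were seen and tied to genes that gained peaks after control NT. The counts cover only the stretch between such peaks and not the whole gene. Only 9 of the 134 were kept (6.72%, against 19.7% of all donor peaks), and 57 were C2C12 peaks, compared with 25562 of the 39592 donor peaks. In Trio, 0 of 12 donor peaks were kept and no peak with Toca1/Fnbp1l fell in the stretch from 27692887 to 27861739 on chromosome 15. Msi2, an RNA-binding protein of stem cells, kept 0 of 9 donor peaks but held 4 peaks with Toca1/Fnbp1l, 3 of them gained. Its stretch on chromosome 11 runs from 88238661 to 88540815. In Kalrn, a paralogue of Trio on chromosome 16 from 33988505 to 34490935, 1 of 5 donor peaks was kept and 6 peaks were gained. Tnrc6b, a component of the microRNA silencing complex, kept 2 of 5, and Sh3pxd2a, the podosome scaffold Tks5, kept 1 of 7. Neither of the 2 donor peaks in the covered part of Fnbp1, a paralogue of Fnbp1l, was kept.

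Where a site was kept, its peak was on balance wider with Toca1/Fnbp1l. In 6847 cases 1 donor peak met 1 peak with Toca1/Fnbp1l and neither met another, which covers 87.8% of kept donor peaks. Widths at these sites had quartiles of 406, 540 and 687 bp in donor MEFs and 447, 651 and 869 bp with Toca1/Fnbp1l. The log2 ratio of the widths (Toca1/Fnbp1l over donor) had a median of 0.24, that is 1.18-fold, and quartiles of -0.27 and 0.75, so a large share of sites moved the other way. The peak was wider at 4249 sites (62.1%, 60.9% to 63.2%), over 2 times as wide at 1038 sites and over 2 times narrower at 473. The median was 0.14 for pairs overlapping by at least 50% of both peaks and 0.11 with the shortened donor list of 16412 peaks.

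Sorted by donor width, the median log2 ratio went from 0.97 in the narrowest of the 4 classes to -0.01 in the widest. The donor width enters both the sorting and the ratio, so this trend is not independent of the sorting. Sorted instead by the width of the C2C12 peak at the same site, which is not in the ratio, the 5875 sites with such a peak gave medians of 0.29, 0.21, 0.26 and 0.28 from the narrowest to the widest of 4 classes, and 62.1% to 64.1% of sites were wider in each. Fibroblast-only sites (n = 561) had a median of 0.28 and shared sites (n = 6286) of 0.24. These medians cover donor peaks of unlike width, 386 bp at fibroblast-only and 552 bp at shared sites. Within donor width classes the medians were alike only in the narrowest (0.97 in both), and fibroblast-only sites were lower in the next (0.42 against 0.75), in class 3 (0.07 against 0.45) and in the widest (-0.36 against -0.00). In the widest class 35.0% of 117 fibroblast-only sites (27.0% to 44.0%) and 49.8% of 3301 shared sites were wider with Toca1/Fnbp1l.

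At the same sites, the median width was above that in donor MEFs with Toca1/Fnbp1l and below it after control NT. At 2425 sites where the donor, control NT and Toca1/Fnbp1l lists each held 1 matching peak, the median width was 577 bp in donor MEFs, 416 bp after control NT and 726 bp with Toca1/Fnbp1l. The median log2 ratio to the donor was -0.45 after control NT, with 23.9% of sites wider, and 0.30 with Toca1/Fnbp1l, with 66.8% wider. The Toca1/Fnbp1l peak was the widest of the 3 at 1534 sites (63.3%), the donor peak at 718 and the control NT peak at 166. The full order of the medians, control NT below donor below Toca1/Fnbp1l, held at 1122 single sites (46.3%). For scale, at the 2208 of these sites that also matched 1 C2C12 peak, the C2C12 list, from another cell type and more cells, gave a median log2 ratio to the donor of 0.32, close to the 0.31 of Toca1/Fnbp1l there. The donor list held 39592 peaks, the Toca1/Fnbp1l list 16412 and the control NT list 8257. The number of peaks in a list does not give its depth, which is unknown. The part of sequencing depth was not tested.

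**Figure D2:**
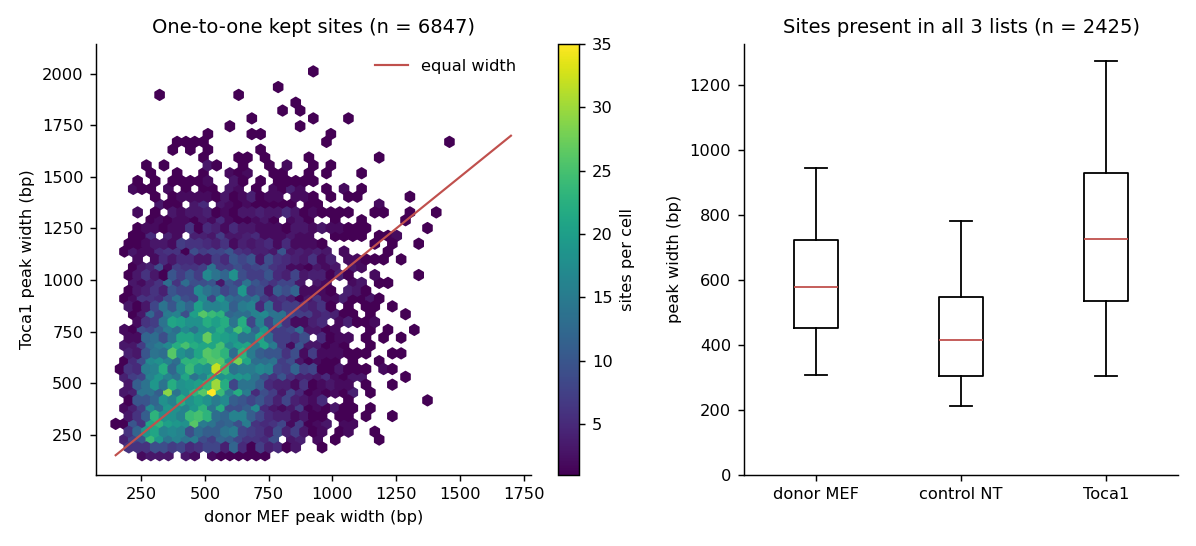
Left, width of the donor MEF peak (x axis, bp) against that of the Toca1/Fnbp1l peak (y axis, bp) at 6847 one-to-one kept sites, coloured by the number of sites per cell, with the line of equal width. Right, widths at the 2425 sites found in all 3 lists (boxes, quartiles with median; whiskers, 5th and 95th percentiles), with medians of 577, 416 and 726 bp.

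The edges of the paired peaks were arranged in several ways. The peak with Toca1/Fnbp1l contained the whole donor peak at 1720 sites (25.1%), lay inside it at 1259 (18.4%) and crossed 1 of its edges at 3868 (56.5%). Its centre was displaced by a median of 127 bp, and by more than 100 bp at 58.8% of sites. The displaced centre still fell inside the donor peak at 79.8% of sites. Where sites were not one-to-one, 422 peaks with Toca1/Fnbp1l each spanned 2 or 3 donor peaks (854 donor peaks in all), while 105 donor peaks met at least 2 peaks with Toca1/Fnbp1l.

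The extremes were as follows. A donor peak of 206 bp on chromosome 11 from 100712528 to 100712733 was met by a peak of 1450 bp, one of 215 bp on chromosome 9 from 20531382 to 20531596 by a peak of 1436 bp, and one of 230 bp on chromosome 10 from 23070548 to 23070777 by a peak of 1474 bp. None of these 3 sites was a C2C12 peak, and only that on chromosome 9 had a control NT peak (454 bp). The largest narrowings were from 956 to 191 bp on chromosome 7 (29996147 to 29997102), from 1178 to 240 bp on chromosome 6 (85865451 to 85866628) and from 868 to 177 bp on chromosome X (151696754 to 151697621).

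Chromosome X stood apart from the autosomes. It had the lowest kept share of the 20 chromosomes, 14.9% (12.7% to 17.4%), although the interval overlaps that of chromosome 13 (15.5%, 13.9% to 17.2%), and autosomes together had 19.8%. It was also the only chromosome on which the median log2 width ratio was below 0, at -0.17 over 118 one-to-one sites, with 46 of them wider, whereas the 19 autosomes ranged from 0.13 on chromosome 13 to 0.37 on chromosome 11. Median donor widths at these sites were 559 bp on X and 539 bp on autosomes. The widest of the 4 donor width classes held 68 of the 118 sites on X and 3350 of 6729 on autosomes. In that class the median ratio was -0.59 on X and -0.00 on autosomes. In the other classes, from the narrowest, it was 0.51 (n = 8), -0.01 (n = 17) and -0.03 (n = 25) on X. On autosomes these were 0.97, 0.72 and 0.43. After control NT the kept share was likewise lower on X, at 5.87% (4.50% to 7.62%) against 9.82%. At the 20 X-linked sites found in all 3 lists the median ratio was -0.15 with Toca1/Fnbp1l and -0.48 after control NT, compared with 0.31 and -0.45 on autosomes. The sex of the embryos is not given in the labels, and the copy number of X in the donor cells was not tested.

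**Figure D3:**
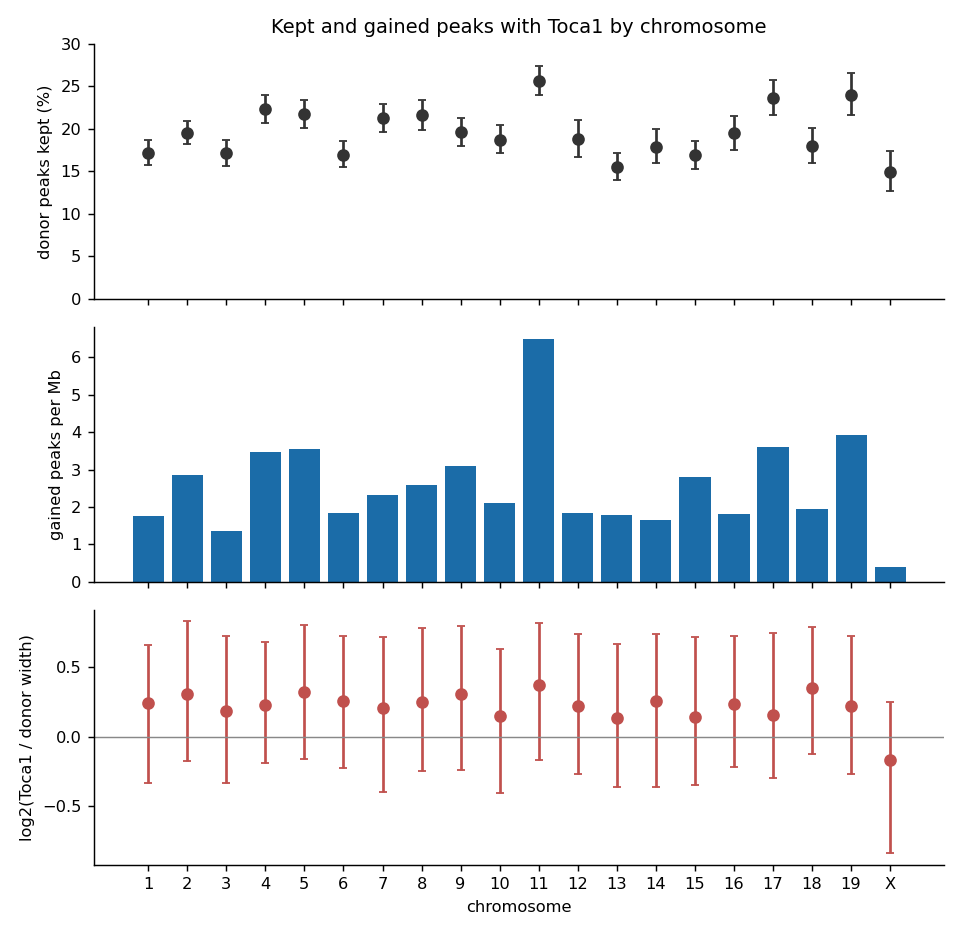
Top, share of donor MEF peaks kept with Toca1/Fnbp1l (percent, 95% Wilson intervals). Middle, gained peaks per Mb of chromosome. Bottom, median log2 ratio of peak width (Toca1/Fnbp1l over donor) at one-to-one sites with quartiles. Chromosome 11 has the highest kept share (25.7%) and gained density (6.48 per Mb), and chromosome X the lowest of both (14.9% and 0.397 per Mb) and the only median ratio below 0.

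Seen from the other side, 7471 peaks with Toca1/Fnbp1l (45.5%, 44.8% to 46.3%) lay on a donor peak, 6520 (39.7%) were gained, and 2421 (14.8%) lay off donor peaks but within 5000 bp of one. Peaks on donor sites were the widest, with a median of 660 bp, against 344 bp for gained and 358 bp for flanking peaks. Against the 16412 widest donor peaks alone, 31.6% lay on a donor peak and 60.2% were gained. By length, gained peaks made up 30.3% of the bases covered with Toca1/Fnbp1l. The share of gained peaks fell with width, from 63.6% of peaks under 250 bp to 1098 of the 5793 peaks of at least 600 bp. Of the gained peaks, 145 were at least 1000 bp wide. Near the 5000 bp limit, 150 peaks lay up to 500 bp closer and 160 up to 500 bp farther, with median widths of 386.5 and 333 bp.

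The median distance from a gained peak to the nearest donor peak was 19824 bp, with quartiles of 10736 and 37599 bp. C2C12 peaks from 50000 cells overlapped 665 gained peaks (10.2%), against 92.0% of the peaks on donor sites and 25.3% of flanking peaks. Among flanking peaks the share depended on distance, from 56.0% within 150 bp of a donor peak to 14.3% at 2000 to 5000 bp, and beyond 5000 bp it varied between 9.47% and 11.4%. The control NT list overlapped 508 gained peaks (7.79%, 7.17% to 8.47%), against 37.7% of peaks on donor sites, and it changed less with distance. It was 11.2% (7.95% to 15.5%) within 150 bp of a donor peak, 7.49% to 8.54% from there to 5000 bp and 7.13% to 9.51% beyond. In all, 5403 gained peaks (82.9%, 81.9% to 83.8%) had no counterpart in the control NT list or either C2C12 list. Their absence from the donor list is set by the rule. Recurrence rose with width. Control NT peaks overlapped 2.90% of gained peaks under 250 bp and 18.1% (16.0% to 20.5%) of those of at least 600 bp, and peaks of the same widths on donor sites were overlapped in 14.3% and 46.2% of cases.

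**Figure D4:**
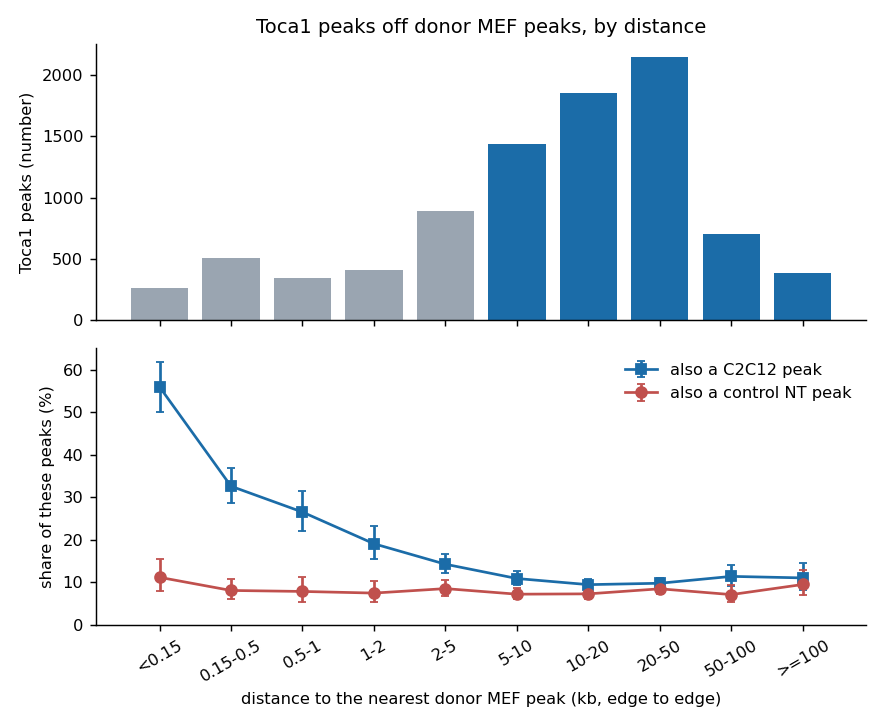
Top, number of Toca1/Fnbp1l peaks that overlap no donor MEF peak, by distance to the nearest one (x axis, kb; grey, flanking; blue, gained). Bottom, share of these peaks (percent, 95% Wilson intervals) that are also C2C12 peaks from 50000 cells or control NT peaks. The C2C12 share falls from 56.0% next to donor peaks to about 10% beyond 5 kb, while the control NT share changes little.

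Gained peaks were concentrated where donor peaks already were. The 118 windows of 1 Mb with 40 or more donor peaks held 8.22 gained peaks each on average, the 677 windows with 10 to 19 donor peaks 2.18, and the 404 windows with 1 to 4 donor peaks 0.228. In the 351 windows without a donor peak there were 27 gained peaks in all. By chromosome, gained density ran from 0.397 per Mb on X and 1.37 on chromosome 3 to 6.48 on chromosome 11, while donor density ran from 5.32 per Mb on X to 20.4 on chromosome 11. The fullest window, on chromosome 11 from 101000001 to 102000000, held 37 gained peaks and 41 donor peaks, 9 of them kept. A window on chromosome 4 from 135000001 to 136000000 held 26 gained peaks, and one on chromosome 11 from 95000001 to 96000000 held 25.

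The widest gained peak, 1880 bp on chromosome 15 from 39028265 to 39030144, lay 8657 bp from the nearest donor peak. The next, 1785 bp on chromosome 7 from 20381292 to 20383076 and 1778 bp on chromosome 6 from 115310849 to 115312626, lay 5642 and 10820 bp away. All 3 overlapped C2C12 peaks, of 568, 563 and 741 bp, and the third also overlapped a control NT peak of 260 bp. The gained peak farthest from any donor peak was 824 bp wide, on chromosome 8 from 30329509 to 30330332, at 1069310 bp. Those next in distance were narrow, 284 bp on chromosome 5 (133182183 to 133182466, at 849949 bp) and 258 bp on chromosome 11 (37049708 to 37049965, at 740728 bp). None of these 3 distant peaks was in another list.

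At named genes, promoters recurred with Toca1/Fnbp1l more often than gene bodies. The study's table of newly opened genes rests on control NT peaks, so every peak looked up in it was already open after control NT and the shares describe recurrence only. Of 225 promoter entries in the table, 101 were overlapped by a peak with Toca1/Fnbp1l (44.9%, 38.5% to 51.4%). Of 316 gene body entries, 46 were (14.6%, 11.1% to 18.9%). An entry is 1 peak at 1 gene, so a peak placed in 2 genes counts as 2 entries. The 46 gene body entries hold 45 distinct peaks with Toca1/Fnbp1l. Over all 3146 control NT peaks at least 5000 bp from a donor peak, 520 were overlapped (16.5%, 15.3% to 17.9%), so the share in gene bodies was close to that of all such peaks. By the distance rule 98 genes had a gained promoter peak and 45 a gained peak in the gene body. The promoter peaks with Toca1/Fnbp1l at Rimklb (855 bp) and Aqp5 (444 bp) lay 4567 and 4803 bp from a donor peak and were not counted as gained. Promoter peaks were wider with Toca1/Fnbp1l than after control NT in 85 of 101 cases, with medians of 624 and 329 bp, and gene body peaks in 39 of 46. These counts are close to the 2065 of 2425 (85.2%) at sites found in the donor and both NT lists. C2C12 peaks overlapped 47 of the 101 promoter entries and 3 of the 46 gene body entries.

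Only gained peaks that overlapped a control NT peak of the study's table could be placed at a promoter or gene body. Control NT peaks overlapped 508 of the 6520 gained peaks, and gained peaks outside that table were not sorted this way. Among the peaks so placed, the widest at a promoter was that of Gpr27, an orphan G protein-coupled receptor (1576 bp). It lay on chromosome 6 from 99641996 to 99643571, where the control NT peak measured 206 bp. The Ephx4 promoter, whose window is printed above, had a peak of 1548 bp with Toca1/Fnbp1l and 481 bp after control NT, on chromosome 5 from 107831520 to 107833067. At Tdrd5 (chromosome 1, 158232630 to 158234073) the widths were 1444 and 329 bp, at Mocs3 (chromosome 2, 168055589 to 168056995) 1407 and 475 bp, and at Enah (chromosome 1, 183949435 to 183950833) 1399 and 547 bp. Ephx4, Tdrd5 and Enah had no C2C12 peak at the site, whereas Mocs3 had one of 989 bp and Gpr27 one of 410 bp.

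Other promoters among the 20 widest belong to genes of varied function. Syce2, of the synaptonemal complex that pairs chromosomes in meiosis, had a promoter peak of 975 bp with Toca1/Fnbp1l and 290 bp after control NT. En2, a homeobox factor of the midbrain and hindbrain, had 913 and 241 bp. The potassium channel subunit genes Kcng3 (1004 and 279 bp) and Kcnmb4 (951 and 537 bp) and the serine protease inhibitor gene Spint1 (1176 and 204 bp) were further examples. Wide peaks were also gained at Prkacb, a catalytic subunit of protein kinase A (1115 and 366 bp), Vps29 of the retromer (920 and 284 bp), and Entpd5, a nucleotidase of the endoplasmic reticulum (1231 and 490 bp). All 3 of these had a C2C12 peak, of 1130, 634 and 1264 bp, while Syce2, En2, Kcng3 and Spint1 had none. The remaining promoters among the 20 widest were those of 1700039E22Rik (1347 bp), Galnt12 (1202 bp), Mir8109 (1133 bp), Gpr135 (1093 bp), Itga8 (961 bp), Sh2d4a (958 bp) and Ly6h (911 bp). At Sh2d4a, alone of the 20, the control NT peak was the wider, at 1002 bp.

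**Figure D5:**
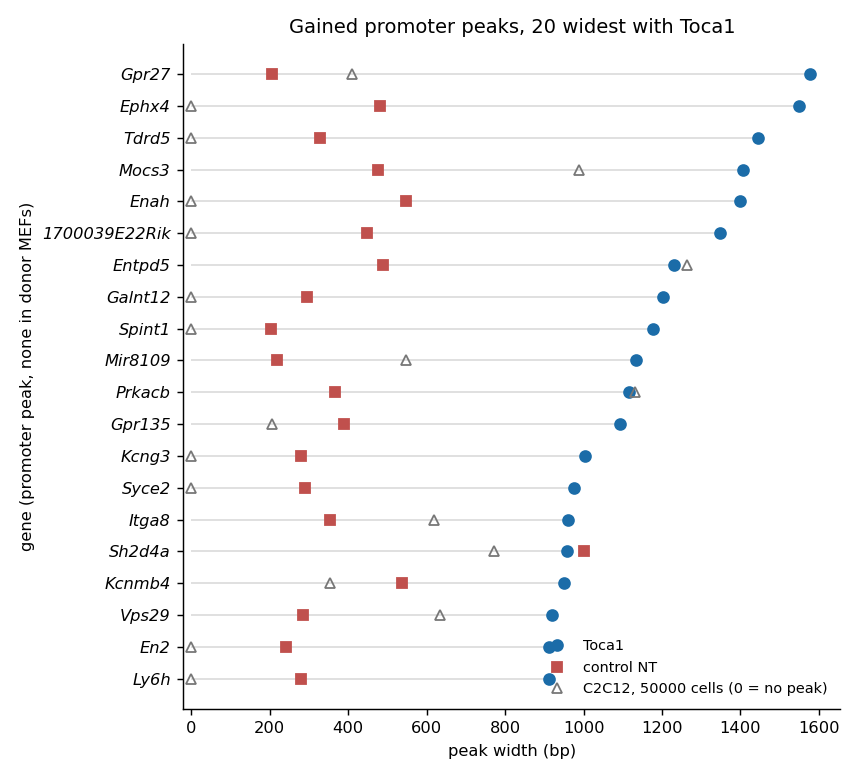
Width of the promoter peak (x axis, bp) of the 20 genes with the widest gained promoter peaks, with Toca1/Fnbp1l (circles), after control NT (squares) and in C2C12 cells (open triangles, 0 where there was no peak); donor MEFs had no peak within 5000 bp. The genes were chosen, among those named through the study's table, for their Toca1/Fnbp1l widths, which run from 911 to 1576 bp. The gap to control NT is therefore a description. At Sh2d4a the control NT peak is the wider.

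Gained peaks in gene bodies were likewise named only through the study's table. The widest of these (1476 bp, chromosome 2 from 155936428 to 155937903) lay in both Cpne1 and Rbm12, which share their start. The peak there measured 327 bp after control NT. It was followed by Egr4, a zinc finger factor of the early growth response family (1410 and 445 bp), Oasl2, an interferon-induced gene (1134 and 369 bp), Prph, the neuronal intermediate filament peripherin (1113 and 243 bp), and Cspg5, a neural chondroitin sulfate proteoglycan (1036 and 470 bp). B3gnt6 (988 bp), Gimap1 (918 bp), Dis3l (885 bp) and Actn3, the alpha-actinin of fast muscle fibres (858 bp), completed the 10 genes. Of these sites, only that in Cspg5 was a C2C12 peak (186 bp). The control NT peaks that the study's table places at Utf1, a chromatin factor of pluripotent cells, and Hoxc8, a homeobox gene, had no overlapping peak with Toca1/Fnbp1l. The nearest peak lay 33329 bp from the Utf1 site (chromosome 7, 147129498 to 147129832) and 6574 bp from the Hoxc8 site (chromosome 15, 102822864 to 102823033). With neither reads nor a second library, the lack of a peak says only that no peak passed the authors' threshold there.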

How the data were processed

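ATAC-seq peak lists of donor MEFs (1 library) and of MEFs 48 h after NT into oocytes overexpressing Toca1/Fnbp1l (1 library) were compared. The lists were used as the authors deposited them: chromosome, start and end of each peak, with no score, at a false discovery rate of 0.01 by the list name. Bowtie2 2.2.1, Picard, MACS2 2.1 and the mm9 build are named in the submitters' processing notes. Their settings and the pooling of libraries are not given in the sources used here. Depth is therefore unknown, and intervals cover counting error over peaks only. Lists were assigned to conditions by their names. Starts were changed to count from 1.

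Peaks overlapped when they shared at least 1 bp, and distances were taken edge to edge. Densities per Mb used the end of the last peak in any list as the length of a chromosome. No p-value was computed, since each condition is 1 list. Tested on simulated data with 2000 donor peaks, the code recovered 400 of 400 overlapping and 300 of 300 distant peaks, with 0 false. The simulated donor peaks stood far apart, so close neighbours and one-to-one matching were not part of these counts. Python 3.11.15, numpy 2.4.6, pandas 2.3.3 and matplotlib 3.10.9 were used.

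No genome or annotation in mm9 was used here, so sequence content of peaks and distances from transcription starts were not analysed, nor were the gene lists planned for them or Pou5f1. Gene names came from the study's tables of newly opened peaks and genes by position. Gained peaks were therefore ranked at promoters and gene bodies only where they overlapped a control NT peak listed there. The copy of the peak table is shortened, so it served only to look up names. RefSeq promoter windows (GRCm38.p6) were matched by symbol for 72 of 98 genes with a gained promoter peak. At 73.5% this is too few for a comparison of promoter content over the set. The peaks named are the widest kept, lost and gained, the farthest gained, the largest width changes, the longest runs and the fullest windows (3 each), and the genes are the 20 with the widest promoter and 10 with the widest gene body peaks. The comparison, the members and the lists were chosen with earlier results of these data known.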

Additional observations from a re-analysis of the deposited data

Results flagged for a closer look

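The median width of kept sites differed in direction between the NT conditions. At the 2425 sites with 1 matching peak in each list, the median log2 ratio of the peak width to that in donor MEFs was 0.30 with Toca1/Fnbp1l and -0.45 after control NT. Single sites were mixed, and the order control NT below donor below Toca1/Fnbp1l held at 1122 of them (46.3%). These are 1 list each against a shared donor list, the difference was not tested, and library and depth cannot be told apart from Toca1/Fnbp1l.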

How the results depend on the processing

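No paired analysis was possible because the donor and Toca1/Fnbp1l conditions are 1 library and 1 list each, and for the same reason leaving out a replicate was not run. Over 40 alternative values, 18 stayed inside the interval of the reported value (within 1.5 times for counts). The median log2 width ratio and the difference between shared and fibroblast-only donor peaks stayed positive in every setting. The other values are shares and counts, which have no direction to change. Where values moved, the cause beyond the construction of the setting was not tested.

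When overlap had to reach 50% of both peaks, the kept share of donor peaks was 11.8%, the share of Toca1/Fnbp1l peaks on donor peaks 28.6%, the difference between shared and fibroblast-only donor peaks 13.3 percentage points and the median log2 width ratio 0.14. Counting peaks within 500 bp gave 22.4%, 50.2% and 25.6 points. With peaks of at least 250 bp the share on donor peaks was 50.7%, the difference 24.6 points, the ratio 0.27 and the gained share 36.5%. Reducing the donor list to its 16412 widest peaks gave 31.3%, 31.6%, 31.7 points, a ratio of 0.11, and 9886 gained peaks (60.2%). All overlapping pairs gave a ratio of 0.31, and the C2C12 list from 1000 cells a difference of 28.1 points. That list covered only 14.1% of kept and 4.05% of lost donor peaks. Its fibroblast-only class is therefore larger and holds many peaks called shared elsewhere, so the contrast is a different one. The gained share was 45.1% at 2000 bp, 31.0% at 10000 bp and 54.5% when only overlap was excluded.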
